A study of Mus musculus with 12 samples.

Results

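The 43 genes described here encode enzymes that break down amino acids in the liver. They were chosen by name, as the rows of the deposited tables whose gene name is on a list of such enzymes. All 43 were found among the 41325 listed genes, and all 43 had enough reads to be among the 16456 tested. Hepatocytes are the main site where most amino acids are degraded. Each amino acid has its own route, in which the nitrogen is removed by a transaminase or dehydratase and the carbon skeleton is cut down to pyruvate, acetyl-CoA, propionyl-CoA or an intermediate of the citric acid cycle. Several of these enzymes are the classic rate-limiting or hormone-regulated proteins of the liver, and inherited loss of many of them causes metabolic disease.

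Liver RNA was sequenced from C57BL/6J mice of WT genotype in 3 groups of 4 libraries. The control group received vehicle and carries no disease label other than control. The NASH vehicle group had nonalcoholic steatohepatitis (NASH) brought about by CDAHFD treatment, a name used in the field for a choline-deficient, amino acid-defined, high-fat diet, and received vehicle. The CDDO-Me group was also CDAHFD-treated and received CDDO-Me (bardoxolone methyl, a synthetic triterpenoid that activates the transcription factor NRF2) by mouth at 10 mg/kg for 8 weeks. The diet of the control mice, the sex and the age stand in no source used here. Diet and liver disease cannot be told apart, because the same mice have both. The study asked how CDDO-Me acts on the liver in this model. No label ties a library to an animal, so p-values measure the spread between these libraries.

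Libraries held 28161057 to 33852338 reads on genes, a 1.20-fold range. Counts scaled to a common library size (CPM) below are scaled between libraries by the trimmed mean of M-values (TMM), and levels of different genes are compared only as deposited TPM, which are per length. Errors of levels are SD over 4 libraries. Fold changes are log2 values with their SE, and adjusted p comes from the edgeR quasi-likelihood fit, adjusted by Benjamini-Hochberg over all 16456 genes. "Fell" and "rose" are used for adjusted p under 0.05. Coordinates are those of the deposited tables, with build GRCm38 per the submitters' processing notes. Hepatocyte markers were abundant in every library, as the liver label states: 13 of them summed to 103917 to 125257 CPM in control, 48117 to 75498 in NASH vehicle and 47606 to 69869 in CDDO-Me. For 12 macrophage markers the sums were 138 to 231 CPM (control), 1915 to 3661 (NASH vehicle) and 1022 to 1891 (CDDO-Me). In bulk liver, fewer hepatocytes and less RNA of an enzyme per hepatocyte cannot be told apart.

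NASH liver held less RNA of nearly every enzyme. Of the 43 enzymes, 39 fell in NASH vehicle against control, 0 rose and 4 did not pass the test, and 32 fell at least 2-fold. The median log2 fold change of the 43 was -1.33, beside -0.01 for all tested genes. As background, 30% of all tested genes fell and 29.6% rose, and 1273 of the 16456 fell at least 2-fold. For 39 of the 43, the 4 NASH vehicle libraries lay wholly below the 4 control libraries, and 27.4% of all tested genes did so. The 4 that did not pass were Gpt2, Agxt2, Bcat2 and Bckdhb. CDDO-Me liver held more RNA than NASH vehicle for 12 enzymes, with 0 lower and 31 not past the test, and in that comparison 9.39% of all tested genes rose and 7.24% fell. Against control, 35 of the 43 were still lower in CDDO-Me, 0 were higher and 8 did not pass the test, while 23.6% of all tested genes were lower and 26.2% were higher. The comparisons share libraries, so they are not independent of each other.

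**Figure D1:**
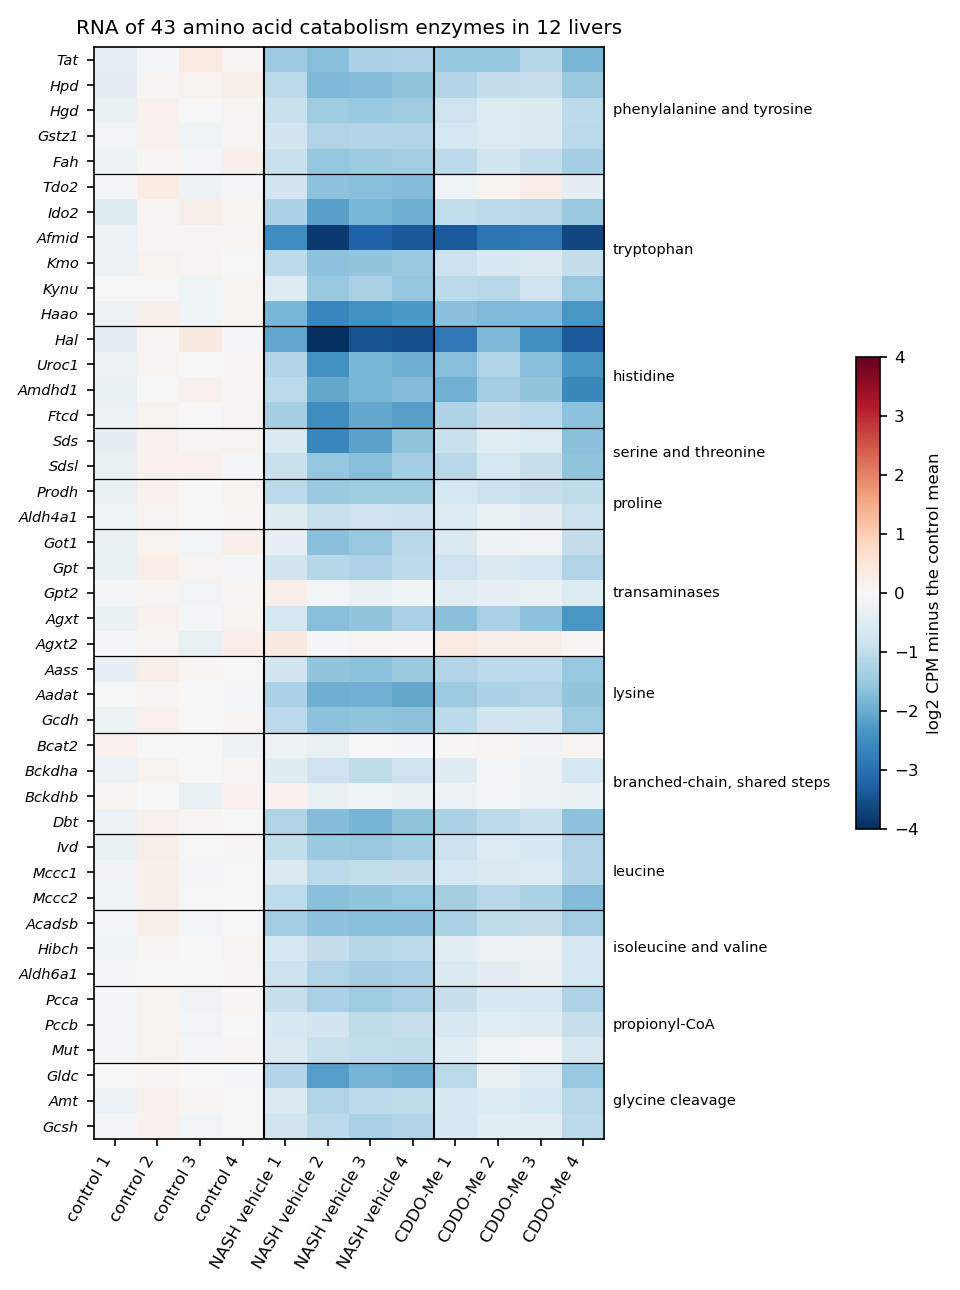
Each row is 1 of the 43 enzymes, ordered by pathway, and each column is 1 of the 12 livers. Colour is log2 CPM minus the mean of the 4 control libraries, from -4 (blue) to 4 (red); the NASH vehicle columns are blue for 39 enzymes, with NASH vehicle 1 the palest of its group, and CDDO-Me 4 is the bluest CDDO-Me column.

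The scale between libraries bears on the size of these falls. TMM factors averaged 0.777 in control, 1.202 in NASH vehicle and 1.078 with CDDO-Me. With library totals alone the median of all tested genes in NASH vehicle against control moved to 0.62, the median of the 43 enzymes was -0.71, and 36 fell and 4 rose. On the authors' TPM the same medians were 0.51 and -0.54, and 30 enzymes fell and 4 rose. Of all 16456 tested genes, 1326 fell and 9908 rose with library totals, and 873 fell and 10905 rose on TPM. The 9 falls that did not pass on TPM were those of Aldh4a1, Got1, Gpt, Bckdha, Mccc1, Hibch, Pccb, Mut and Amt. Of all genes called in that comparison, 49.6% were higher with TMM, 88.2% with library totals and 92.6% on TPM. The enzymes took 1.20% to 1.55% of all gene reads in control, 0.736% to 1.06% in NASH vehicle and 0.908% to 1.10% in CDDO-Me, with no rescaling, and the control range did not overlap with either of the others.

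Per length, the most abundant enzymes in control liver were those of the start of tyrosine breakdown. Hpd held 1752 ± 364, 1043 ± 197 and 1162 ± 89.1 TPM in the 3 groups (control first, then NASH vehicle, then CDDO-Me), and Tat held 1635 ± 437, 1073 ± 228 and 802 ± 76.0. Their SDs overlap in control, so the order of these 2 was not resolved there. Haao was next at 890.4 ± 125, 308 ± 59.2 and 350.0 ± 59.0 TPM and Tdo2 followed at 693 ± 75.5, 452 ± 132 and 1017 ± 75.6. In CDDO-Me, Tdo2 had the second highest mean of the 43, after Hpd, and their SDs overlap, so this order was not resolved either. The lowest in control were Bcat2, at 10.7 ± 1.46, 16.7 ± 2.62 and 15.6 ± 2.95 TPM, and Mccc1, at 12.9 ± 1.41, 12.3 ± 1.50 and 11.7 ± 1.28. Summed over all 43, control libraries held 10975 ± 1649.8 TPM, NASH vehicle libraries 7300.0 ± 1124 and CDDO-Me libraries 8022 ± 633. On this sum control 1 (8652) lay below NASH vehicle 1 (8706), so control and NASH vehicle overlapped.

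All 5 enzymes that take phenylalanine and tyrosine carbon to fumarate and acetoacetate fell in NASH liver. Hpd (hydroxyphenylpyruvate dioxygenase, the enzyme blocked by nitisinone) changed most, with log2 fold change -1.53 ± 0.20, adjusted p = 2.04e-05. Its libraries held 1647, 2208, 2356 and 2455 CPM in control, 1025, 619, 650.1 and 705 in NASH vehicle, and 957, 1114, 1134 and 762 in CDDO-Me. Every NASH vehicle value lay below every control value, and the CDDO-Me libraries spanned the upper part of the NASH vehicle range and beyond it (0.40 ± 0.19, adjusted p = 0.176 against NASH vehicle). Tat, the hormone-inducible tyrosine aminotransferase that opens the route, fell by 1.42 ± 0.18 and stood at -0.10 ± 0.18 in CDDO-Me against NASH vehicle. Gstz1 (maleylacetoacetate isomerase) was at -1.07 ± 0.15 and Fah (fumarylacetoacetase, whose loss causes hereditary tyrosinaemia) at -1.30 ± 0.17. Hgd (homogentisate dioxygenase, which opens the aromatic ring) was the one of the 5 that passed the test with CDDO-Me, at 0.56 ± 0.17, adjusted p = 0.0355. Hgd libraries held 631, 851, 757 and 829 CPM in control, 411, 284, 264 and 282 in NASH vehicle, and 427, 524, 505 and 368 in CDDO-Me. NASH vehicle 1 stood above the rest of its group and above CDDO-Me 4, so these groups overlapped.

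All 6 enzymes of tryptophan breakdown through kynurenine fell in NASH liver, and 2 of them, Tdo2 and Kmo, rose with CDDO-Me. Tdo2 (tryptophan dioxygenase, the rate-limiting enzyme of tryptophan breakdown in liver; ENSMUSG00000028011, chr3:81957090-81976202, minus strand) fell by 1.42 ± 0.23, adjusted p = 0.000131. Its libraries held 1509, 1897, 1360.2 and 1495 CPM in control, 907, 499.5, 472 and 465 in NASH vehicle, and 1373, 1731, 1880.4 and 1205 in CDDO-Me. All 4 CDDO-Me libraries lay above all 4 NASH vehicle libraries and overlapped with control. Tdo2 rose with CDDO-Me by 1.40 ± 0.23, adjusted p = 0.00118, which is 2.64-fold and the largest fitted rise among the 43. Against control it stood at -0.02 ± 0.22, adjusted p = 0.957, with a 95% interval of -0.50 to 0.47. That position belongs to the TMM scale: with library totals it turned to 0.44 and on TPM to 0.56. On TPM all 4 CDDO-Me libraries of Tdo2 (920 to 1082) lay above all 4 control libraries (638 to 805). Kmo (kynurenine monooxygenase, which makes hydroxykynurenine; ENSMUSG00000039783, chr1:175620381-175662116, plus strand) showed the same order of groups with a partial return. Kmo libraries held 291, 379, 364 and 336 CPM in control, 166, 109, 114 and 122 in NASH vehicle, and 189, 223, 227 and 175 in CDDO-Me. Control, CDDO-Me and NASH vehicle did not overlap with each other. Its log2 fold change was -1.42 ± 0.15, adjusted p = 3.35e-06 in NASH vehicle against control and 0.67 ± 0.15, adjusted p = 0.00746 in CDDO-Me against NASH vehicle. Fh1, on the opposite strand, overlaps Kmo, and the strand used for counting is not known here.

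Afmid (kynurenine formamidase; ENSMUSG00000017718, chr11:117825924-117839908, plus strand) had the largest fitted fall of the 43, close to that of Hal, and no change with CDDO-Me that passed the test. Its libraries held 163, 199, 196 and 208 CPM in control, 33.7, 13.3, 20.3 and 18.2 in NASH vehicle, and 18.5, 25.2, 26.3 and 15.3 in CDDO-Me. NASH vehicle and CDDO-Me overlapped, and both lay far below control. The log2 fold change was -3.16 ± 0.27, adjusted p = 1.23e-06 against control and -0.01 ± 0.25, adjusted p = 0.993 in CDDO-Me against NASH vehicle. Only 41.3% of its reads were marked unique in the deposited tables, and on unique reads alone its log2 fold change was -3.32. Gm20708 overlaps the locus on the same strand. Haao (hydroxyanthranilate dioxygenase, on the way to NAD) fell by 2.27 ± 0.19 and stayed at -1.88 ± 0.19 in CDDO-Me against control. Kynu (kynureninase) was at -1.16 ± 0.21, and CDDO-Me against NASH vehicle was 0.04 ± 0.21. Ido2, a dioxygenase of weak activity on tryptophan, fell by 1.79 ± 0.20, and its value with CDDO-Me, 0.62 ± 0.20, adjusted p = 0.0505, lay just outside the threshold.

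**Figure D2:**
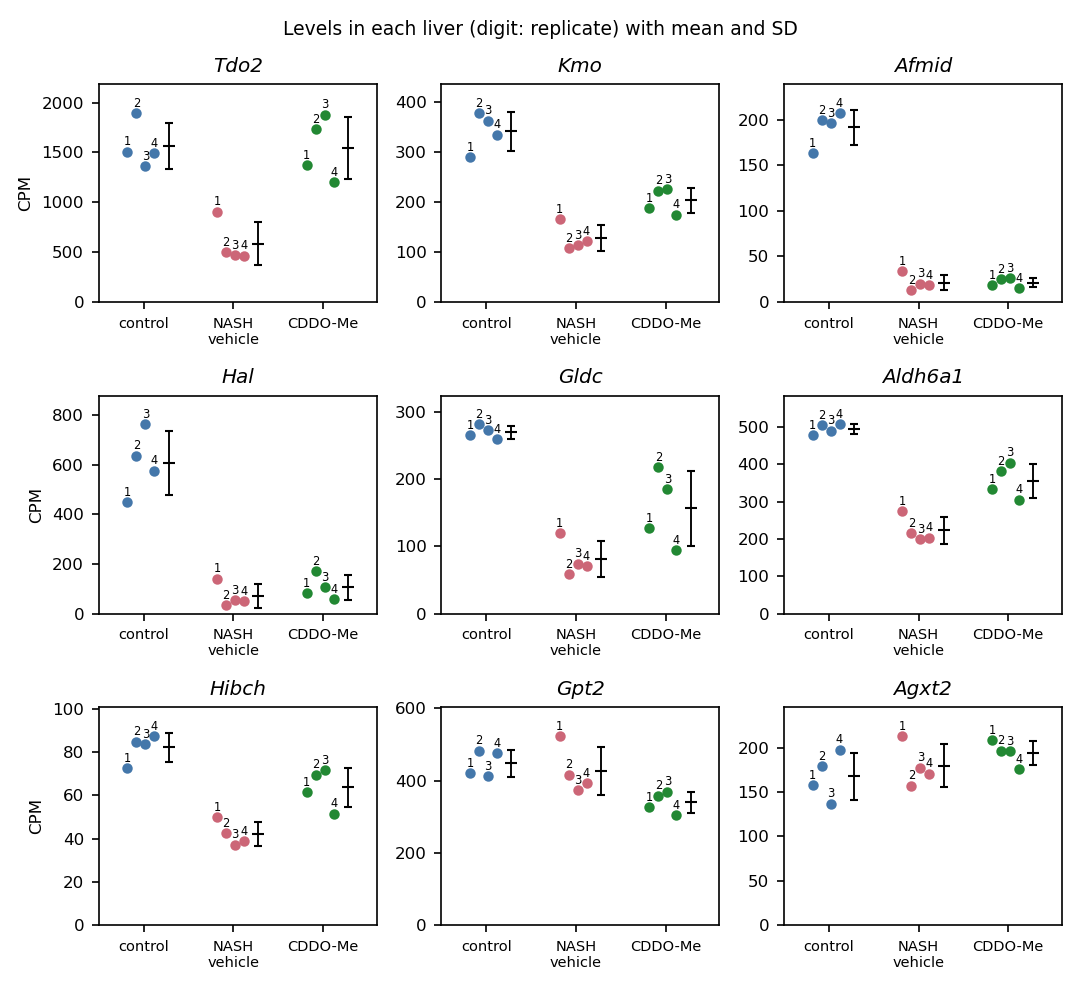
CPM (y axis, linear, from 0) of 9 enzymes in each of the 12 livers, with the replicate number above each point and the mean and SD at the side. Tdo2 in CDDO-Me overlaps with its control values and lies above NASH vehicle, Afmid and Hal stay low in both NASH groups, and Gpt2 and Agxt2 in NASH vehicle overlap with control.

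The start regions of these genes were read for short motifs, since members moved together and CDDO-Me acts on NRF2. RefSeq promoters of build GRCm38.p6, from 250 bases before the start to 50 after it, were matched for 36 of the 43 enzymes, with 42 start sites among 32851 promoters in all. The antioxidant response element core TGACNNNGC, bound by NRF2 with small MAF proteins, was in 4 of 42 (9.52%) on either strand, beside 12.4% of all promoters. The 4 genes were Tdo2, Prodh, Amt and Bckdhb, and of these Tdo2 and Prodh rose with CDDO-Me. The HNF4A sequence CAAAGTCCA was in 3 of 42 (7.14%), beside 0.475% of all promoters, and these came from Aadat and from 2 overlapping windows of Agxt2. TATAAA was in 14.3% beside 13.6%. The cAMP response element TGACGTCA (1.79% of all promoters) and the C/EBP sequence TTGCGCAA (0.183%) were in 0 of 42. A match is a run of letters and not a measured binding site. The stretches below are printed because they belong to the enzyme with the largest rise (Tdo2), a strong faller (Aadat) and 1 that did not change past the test (Agxt2). Each runs 5′ to 3′ on the gene's strand from 100 bases before the RefSeq start, with the motif in capitals. For Tdo2 and Aadat the printed stretch lies inside the deposited gene bounds, which open at chr3:81976202 (minus strand) and chr8:60505932 (plus strand).
Tdo2, chr3:81975719-81975828, minus strand, antioxidant response element core across the start: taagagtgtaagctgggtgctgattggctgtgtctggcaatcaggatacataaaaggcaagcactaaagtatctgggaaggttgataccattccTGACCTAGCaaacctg
Aadat, chr8:60506024-60506133, plus strand, HNF4A sequence read on the opposite strand: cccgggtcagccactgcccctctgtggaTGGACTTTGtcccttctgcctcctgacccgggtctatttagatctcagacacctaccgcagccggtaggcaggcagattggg
Agxt2, chr15:10358433-10358542, plus strand, HNF4A sequence: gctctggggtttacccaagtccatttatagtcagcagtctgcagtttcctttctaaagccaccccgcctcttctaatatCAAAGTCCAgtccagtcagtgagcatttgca
The Aadat and Agxt2 matches lie 72 to 64 and 21 to 13 bases before the RefSeq start. The 2 genes with this sequence differed in NASH liver, with Aadat at -1.77 ± 0.15 and Agxt2 at 0.10 ± 0.13.

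All 4 histidine enzymes fell in NASH liver and all 4 remained below control in CDDO-Me. Hal (histidase, which removes the amino group of histidine; ENSMUSG00000020017, chr10:93488768-93519304, plus strand) fell 8.68-fold, -3.12 ± 0.46, adjusted p = 0.000142. Hal libraries held 449.9, 637, 763 and 576 CPM in control, 141, 34.8, 53.0 and 51.2 in NASH vehicle, and 81.9, 172, 108 and 58.3 in CDDO-Me. Control lay wholly above both NASH groups, and NASH vehicle 1 and CDDO-Me 2 were the highest of theirs. With CDDO-Me the change was 0.59 ± 0.43, adjusted p = 0.397, and its 95% interval of -0.36 to 1.53 is wide because the libraries of each NASH group are spread. Uroc1 (urocanase) was at -1.78 ± 0.26 and Amdhd1 (imidazolonepropionase) at -1.63 ± 0.25 in NASH vehicle against control. Amdhd1 stood at -1.81 ± 0.25 in CDDO-Me against control, the lowest value relative to control after Afmid, Hal and Haao. Ftcd (formimidoyltransferase cyclodeaminase, which hands the last histidine carbon to folate) fell by 1.95 ± 0.22 and was the one of the 4 that passed the test with CDDO-Me, 0.74 ± 0.22, adjusted p = 0.033. Ftcd libraries held 461, 605, 535 and 582 CPM in control, 215, 97.4, 132 and 121 in NASH vehicle, and 232, 279, 259 and 174 in CDDO-Me. CDDO-Me 4 lay below NASH vehicle 1, and the other values of these groups did not cross.

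Serine, threonine and proline enzymes also fell. Sds (serine dehydratase, which makes pyruvate for gluconeogenesis) was at -1.54 ± 0.40, adjusted p = 0.00595 and had a wide spread. Its libraries held 136, 198, 187 and 188 CPM in control, 117, 28.9, 40.1 and 57.5 in NASH vehicle, and 93.6, 131, 119.9 and 54.9 in CDDO-Me. NASH vehicle 1 lay far above the rest of its group, and CDDO-Me 4 lay apart from the other CDDO-Me libraries. The change of Sds with CDDO-Me, 0.71 ± 0.39, adjusted p = 0.251, did not pass. It passed in the fit without NASH vehicle 1 but not in the fit without CDDO-Me 4. Sdsl, a related dehydratase-like protein, was at -1.36 ± 0.21. Prodh (proline dehydrogenase, the first step of proline oxidation in mitochondria) fell by 1.35 ± 0.12, adjusted p = 1.12e-06 and rose with CDDO-Me by 0.48 ± 0.12, adjusted p = 0.0176. Prodh libraries held 175, 243, 215 and 235 CPM in control, 101, 77.3, 80.7 and 81.0 in NASH vehicle, and 133, 119.9, 114 and 107 in CDDO-Me. The 3 groups did not overlap. Dgcr6 overlaps Prodh on the opposite strand, and Plbd2 overlaps the end of Sds. Aldh4a1, which completes proline breakdown to glutamate, fell by 0.76 ± 0.14, with 13.7% of its reads unique and a log2 fold change of -0.86 on unique reads alone. On TPM the fall of Aldh4a1 was not seen, at 0.058.

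Of the 5 transaminases grouped here 3 fell, with Tat, Aadat and Bcat2 placed under their own amino acids. Agxt (alanine-glyoxylate aminotransferase, which disposes of glyoxylate and whose loss causes primary hyperoxaluria) fell by 1.27 ± 0.23, adjusted p = 0.000425. Agxt libraries held 299, 402, 349 and 390.5 CPM in control, 219.8, 110.2, 121 and 146 in NASH vehicle, and 112, 144, 116 and 71.3 in CDDO-Me. Both NASH groups lay below control, and the CDDO-Me libraries were within or below the NASH vehicle range. It stood at -0.43 ± 0.23 in CDDO-Me against NASH vehicle and -1.70 ± 0.24 against control. Got1 (cytosolic aspartate aminotransferase) fell by 1.07 ± 0.28, and Gpt (cytosolic alanine aminotransferase) fell by 1.04 ± 0.16. Both are the enzymes assayed in serum as signs of liver injury, and here only their liver RNA was measured. The falls of Got1 and Gpt did not pass the test on TPM.

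Gpt2 and Agxt2, both mitochondrial, did not pass the test in NASH liver. Gpt2 (alanine aminotransferase of mitochondria) libraries held 419.8, 483, 412 and 476 CPM in control, 524, 416, 374 and 393 in NASH vehicle, and 327, 358, 369 and 304 in CDDO-Me. Control and NASH vehicle overlapped, -0.07 ± 0.12, adjusted p = 0.657, with a 95% interval of -0.34 to 0.20. All 4 CDDO-Me libraries lay below all 4 NASH vehicle libraries, though the difference, -0.33 ± 0.12, adjusted p = 0.0875, did not pass, and against control CDDO-Me was lower, -0.40 ± 0.12, adjusted p = 0.0168. With library totals Gpt2 in NASH vehicle against control turned to 0.55, and on TPM to 0.72. Agxt2, which transaminates alanine with glyoxylate and clears methylated arginines, held 158, 179, 137 and 198 CPM in control, 213, 157, 177 and 171 in NASH vehicle, and 209, 197, 196 and 176 in CDDO-Me. The 3 groups overlapped. Its log2 fold changes were 0.10 ± 0.13, adjusted p = 0.524 and 0.11 ± 0.13, adjusted p = 0.591, with an interval of -0.17 to 0.37 for the first. With library totals Agxt2 in NASH vehicle against control moved to 0.73 and on TPM to 0.90, and both passed the test. On TPM its control libraries (71.5 to 96.7) lay below all NASH vehicle (134 to 169) and all CDDO-Me libraries (132 to 171). Its promoter is the third of those printed above.

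The 3 lysine enzymes fell together and none passed the test with CDDO-Me. Aadat (aminoadipate aminotransferase, which also transaminates kynurenine) fell most, -1.77 ± 0.15, adjusted p = 6.44e-07. Aadat libraries held 106, 114, 106 and 105 CPM in control, 44.6, 28.1, 28.2 and 26.1 in NASH vehicle, and 39.7, 45.1, 47.0 and 36.3 in CDDO-Me. Control values were close to each other and lay far above every NASH vehicle value. CDDO-Me 1, 2, 3 and 4 all lay above NASH vehicle 2, 3 and 4, while NASH vehicle 1 lay among them (0.40 ± 0.15, adjusted p = 0.0785). Aass, the bifunctional enzyme of the opening steps, was at -1.34 ± 0.19. Gcdh (glutaryl-CoA dehydrogenase, shared by lysine and tryptophan and lost in glutaric aciduria) was at -1.46 ± 0.18 and, with CDDO-Me against NASH vehicle, at 0.45 ± 0.17, adjusted p = 0.0883.

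Of the 4 enzymes of the shared steps of branched-chain amino acid breakdown 2 fell. Dbt, the acyltransferase core of the branched-chain ketoacid dehydrogenase, fell by 1.59 ± 0.17, adjusted p = 4.97e-06. Dbt libraries held 112, 150.1, 142 and 133 CPM in control, 57.5, 40.4, 36.9 and 43.8 in NASH vehicle, and 55.0, 63.5, 72.7 and 42.4 in CDDO-Me. All control values lay above both NASH groups. Bckdha, the alpha subunit of the decarboxylase of the same complex, fell by 0.79 ± 0.15, and Bckdhb, its beta subunit, did not pass at -0.13 ± 0.12, adjusted p = 0.358. Bckdhb libraries held 115, 109, 87.2 and 121 CPM in control, 122, 88.6, 95.3 and 87.6 in NASH vehicle, and 90.3, 99.0, 90.4 and 89.8 in CDDO-Me. All 3 groups of Bckdhb overlapped. Bcat2, the mitochondrial aminotransferase that acts mainly outside hepatocytes, was at -0.14 ± 0.10, adjusted p = 0.246. Bcat2 libraries held 31.07, 27.35, 27.90 and 23.52 CPM in control, 23.97, 22.04, 27.76 and 25.82 in NASH vehicle, and 28.04, 29.27, 24.81 and 29.50 in CDDO-Me. Its groups overlapped as well. An antisense transcript with 44009 reads overlaps Bcat2, which had 9990. With library totals, Bckdhb and Bcat2 in NASH vehicle against control turned to 0.49 and 0.49, and the fall of Bckdha did not pass the test. The 4 genes of the shared steps had no change past the test with CDDO-Me against NASH vehicle.

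Each of the 3 leucine enzymes fell. Mccc2 (beta subunit of methylcrotonyl-CoA carboxylase) fell most, -1.44 ± 0.16, adjusted p = 5.51e-06, and its partner Mccc1 was at -0.89 ± 0.14, which on TPM became -0.065 and did not pass. Mccc2 libraries held 84.0, 111, 94.5 and 94.2 CPM in control, 46.7, 30.1, 31.8 and 33.0 in NASH vehicle, and 38.0, 44.5, 39.8 and 28.5 in CDDO-Me. The 2 NASH groups overlapped and both lay below control. Ivd (isovaleryl-CoA dehydrogenase, lost in isovaleric acidaemia) fell by 1.33 ± 0.17 and rose with CDDO-Me by 0.54 ± 0.17, adjusted p = 0.0393. Ivd libraries held 227, 331, 281 and 291 CPM in control, 141, 99.5, 98.3 and 110.1 in NASH vehicle, and 155, 192, 184 and 122 in CDDO-Me. NASH vehicle 1 lay above CDDO-Me 4, and the other values of the 2 NASH groups did not cross.

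All 3 enzymes of the isoleucine and valine routes fell in NASH liver and rose with CDDO-Me. Acadsb (short/branched-chain acyl-CoA dehydrogenase, of the isoleucine route) was at -1.60 ± 0.12, adjusted p = 2.38e-07 in NASH vehicle against control. Acadsb libraries held 164, 208, 166 and 175 CPM in control, 68.3, 57.0, 54.2 and 55.5 in NASH vehicle, and 74.3, 87.2, 91.6 and 68.4 in CDDO-Me. CDDO-Me 4 lay only just above NASH vehicle 1, and the groups did not overlap (0.45 ± 0.12, adjusted p = 0.0194). Only 29.0% of its reads were unique, and Fgfr2 lies over the locus on the opposite strand. On unique reads alone the values of Acadsb were -1.61 and 0.47. Hibch (hydroxyisobutyryl-CoA hydrolase, of the valine route; ENSMUSG00000041426, chr1:52844929-52920986, plus strand) fell by 0.97 ± 0.12 and rose with CDDO-Me by 0.60 ± 0.12, adjusted p = 0.00416. Hibch libraries held 72.7, 84.9, 83.7 and 87.6 CPM in control, 49.8, 42.5, 37.2 and 38.7 in NASH vehicle, and 61.7, 69.6, 71.9 and 51.6 in CDDO-Me. The 3 groups lay apart, with CDDO-Me between NASH vehicle and control on the TMM scale. Against control, Hibch in CDDO-Me was at -0.37 ± 0.12, adjusted p = 0.0185. That value turned to 0.088 with library totals and 0.21 on TPM, and it did not pass without control 4 (-0.34) or without CDDO-Me 4 (-0.28). The fall of Hibch in NASH liver was -0.16 on TPM and did not pass there. Aldh6a1 (methylmalonate semialdehyde dehydrogenase, the late valine step; ENSMUSG00000021238, chr12:84430717-84451004, minus strand) showed the same order of groups, though on TPM its value in CDDO-Me against control turned to 0.13. Aldh6a1 libraries held 478, 505, 490.5 and 507 CPM in control, 275, 215, 199 and 204 in NASH vehicle, and 333, 383, 405 and 306 in CDDO-Me. Its change in NASH liver was -1.15 ± 0.13, adjusted p = 5.6e-06, its rise with CDDO-Me 0.68 ± 0.13, adjusted p = 0.00293, and its groups did not overlap. With 39.1% of its reads unique, the rise on unique reads alone was 0.63. The 3 enzymes summed to 215 ± 17.2 TPM in control, 164 ± 15.0 in NASH vehicle and 219 ± 3.92 with CDDO-Me.

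The propionyl-CoA steps, where the carbon of isoleucine, valine and other amino acids enters the citric acid cycle, fell in all 3 members. Pcca (alpha subunit of propionyl-CoA carboxylase) fell by 1.22 ± 0.14, adjusted p = 8.19e-06, and Pccb, the beta subunit, fell by 0.81 ± 0.12. Pcca libraries held 100.1, 114, 93.7 and 109 CPM in control, 55.2, 42.4, 38.9 and 42.0 in NASH vehicle, and 55.2, 67.7, 66.5 and 44.2 in CDDO-Me. Control lay above both NASH groups, and NASH vehicle 1 lay within the CDDO-Me range. Ggact overlaps Pcca on the opposite strand. Mut (the cobalamin-dependent methylmalonyl-CoA mutase) fell by 0.87 ± 0.13, rose with CDDO-Me by 0.55 ± 0.13, adjusted p = 0.0138 and stood at -0.32 ± 0.13, adjusted p = 0.0652 against control. Mut libraries held 195, 228, 194 and 212 CPM in control, 138, 112, 104 and 102 in NASH vehicle, and 152, 185, 195 and 133 in CDDO-Me. CDDO-Me 4 lay below NASH vehicle 1, and CDDO-Me 3 reached the lowest control value. On TPM the changes of Pccb and Mut were 0.015 and -0.048 and did not pass.

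The glycine cleavage system of mitochondria, which splits glycine and feeds folate, fell in all 3 members measured. Gldc (glycine decarboxylase) fell by 1.74 ± 0.26, adjusted p = 9.14e-05 and rose with CDDO-Me by 0.95 ± 0.25, adjusted p = 0.0229, the second largest fitted rise of the 43. Gldc libraries held 266, 282, 273 and 259.8 CPM in control, 120.0, 59.2, 74.4 and 70.3 in NASH vehicle, and 128, 219, 186 and 95.1 in CDDO-Me. CDDO-Me 2 and 3 approached control, while CDDO-Me 4 lay below NASH vehicle 1. Gcsh (the lipoyl carrier protein) fell by 1.08 ± 0.14 and rose by 0.46 ± 0.14, adjusted p = 0.041. Gcsh libraries held 129.7, 153, 127 and 138 CPM in control, 78.1, 66.6, 56.1 and 59.6 in NASH vehicle, and 87.7, 102, 103 and 65.8 in CDDO-Me. CDDO-Me 4 again lay below NASH vehicle 1. Amt (the aminomethyltransferase) fell by 0.95 ± 0.15 and did not pass with CDDO-Me, 0.21 ± 0.15, adjusted p = 0.365. On TPM its fall was -0.15 and did not pass.

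**Figure D3:**
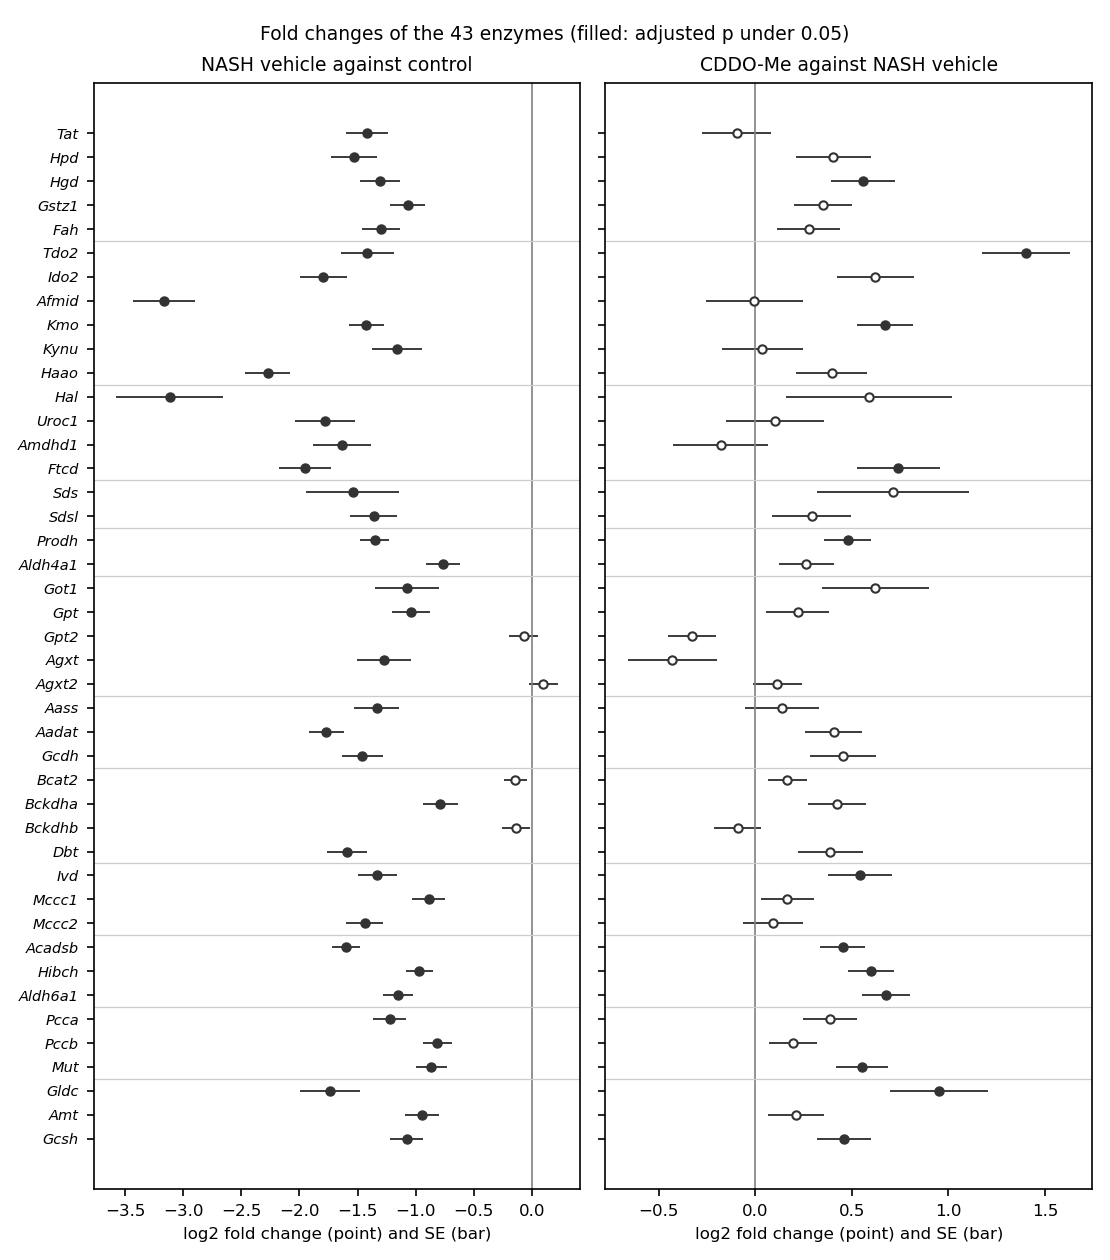
Log2 fold change (point) and SE (bar) of each of the 43 enzymes in NASH vehicle against control (left) and in CDDO-Me against NASH vehicle (right); filled points have adjusted p under 0.05. On the left, 39 filled points lie below 0 and Gpt2, Agxt2, Bcat2 and Bckdhb lie near it; on the right, 12 filled points lie above 0, with Tdo2 at 1.40.

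The 12 enzymes that rose with CDDO-Me were Tdo2, Gldc, Ftcd, Aldh6a1, Kmo, Hibch, Hgd, Mut, Ivd, Prodh, Gcsh and Acadsb, in order of fold change. The median of all 43 was 0.39, beside -0.01 for all tested genes, and 37 of 43 fold changes were above 0. In 7 of 43 the 2 groups did not overlap (6 with CDDO-Me higher and Gpt2 with CDDO-Me lower), beside 21.6% of all tested genes. The rise of Tdo2, Kmo, Hibch and Aldh6a1 passed the test under each of the 23 alternatives run. Of the other 8, Mut lost the call in 3 of them, Prodh, Acadsb and Gldc in 6 each, Hgd and Ftcd in 9 each, and Ivd and Gcsh in 11 each.

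The count of rises moved with single libraries. NASH vehicle 1 was the highest of its group for 41 of 43 enzymes, and CDDO-Me 4 was the lowest of its group for 42 of 43. Without NASH vehicle 1, 25 enzymes rose with CDDO-Me, and without CDDO-Me 4, 20 did. Of all tested genes, 1768 of 16739 and 1972 of 16704 rose in these fits, beside 1545 of 16456 with all libraries. Without NASH vehicle 2, 3 or 4, the count was 5, 5 and 4, and without CDDO-Me 1, 2 or 3 it was 7, 5 and 5. Over all tested genes the rises without NASH vehicle 2, 3 or 4 were 1102 of 16716, 959 of 16653 and 930 of 16685. For CDDO-Me 1, 2 or 3 left out they were 1290 of 16695, 937 of 16799 and 947 of 16803. The 13 enzymes gained without NASH vehicle 1 were Hpd, Gstz1, Fah, Ido2, Haao, Hal, Sds, Got1, Aadat, Gcdh, Bckdha, Dbt and Pcca. NASH vehicle 1 also had the highest sum of hepatocyte markers of its group (75498 CPM, others 48117 to 55311) and the lowest of macrophage markers (1915 CPM, others 3097 to 3661). CDDO-Me 4 had the lowest hepatocyte sum of its group (47606 CPM, others 52119 to 69869) and the highest macrophage sum (1891 CPM, others 1022 to 1443). It also had the highest sums of stellate and smooth muscle markers (889 CPM, others 488 to 648) and of cholangiocyte markers (865 CPM, others 381 to 757). Control 3 stood apart in the same way, at 641 CPM of stellate and smooth muscle markers (others 210.0 to 257) and 265 CPM of cholangiocyte markers (others 44.8 to 82.2). Without control 3, 13 enzymes rose with CDDO-Me, and without both control 3 and CDDO-Me 4, 20 did. Of all tested genes, 1686 of 16759 and 2211 of 16591 rose in these fits. The part of these differences in the enzyme values was not tested.

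**Figure D4:**
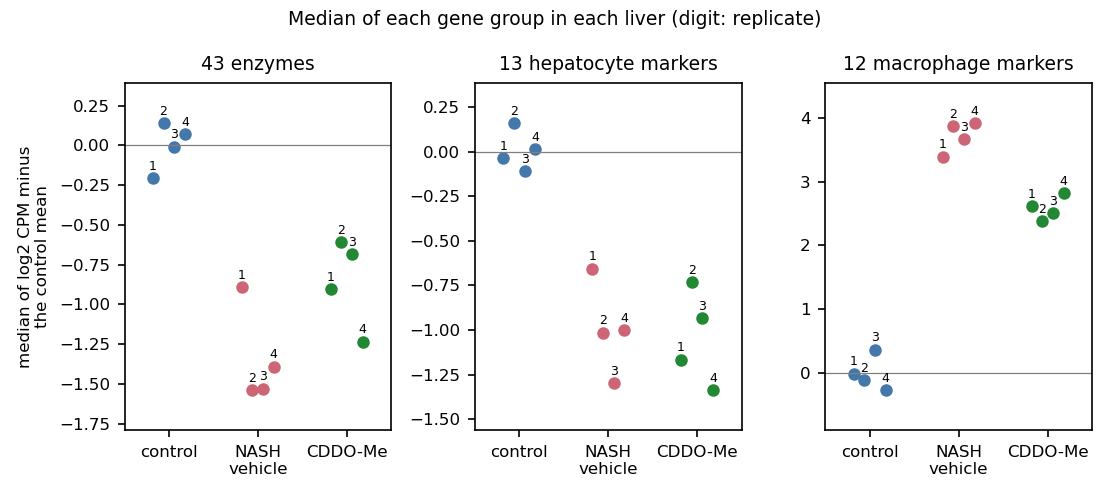
Median of log2 CPM minus the control mean in each liver for the 43 enzymes, 13 hepatocyte markers and 12 macrophage markers (digits: replicate number). NASH vehicle 1 is the highest of its group for the enzymes (-0.89) and the lowest for macrophage markers (3.39), and CDDO-Me 4 is the lowest of its group for the enzymes (-1.23) and the highest for macrophage markers (2.82).

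Taken against control on the TMM scale, the 43 enzymes in CDDO-Me liver fell into few patterns. For 24, including Tat, Fah, Afmid, Haao, Hal, Agxt and Mccc2, NASH vehicle was lower than control, CDDO-Me did not differ from NASH vehicle past the test, and CDDO-Me was lower than control. For 10 (Hgd, Kmo, Ftcd, Prodh, Ivd, Acadsb, Hibch, Aldh6a1, Gldc and Gcsh), CDDO-Me was above NASH vehicle and below control. On TPM, CDDO-Me against control did not pass for Hgd, Kmo, Ivd, Gldc and Gcsh, and it changed sign for Hibch and Aldh6a1. Tdo2 and Mut fell, rose, and did not differ from control past the test. Sds, Got1 and Bckdha fell in NASH vehicle and passed in neither comparison with CDDO-Me. Agxt2, Bcat2 and Bckdhb passed in none of the 3 comparisons, and Gpt2 passed only in CDDO-Me against control. The median log2 fold change of the 43 in CDDO-Me against control was -0.83, and for 36 the 2 groups did not overlap, beside 43.7% of all tested genes. As a share of the control level, on the TMM scale, mean Tdo2 was 37.4% in NASH vehicle and 98.8% with CDDO-Me, Gldc was 30.0% and 58.0%, and Afmid was 11.2% and 11.1%.

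The tables also give reads in introns, which come mostly from unspliced RNA and were tested in a fit of their own over 12283 genes. In NASH vehicle against control, intron reads of 29 of the 43 enzymes fell, 0 rose and 14 did not pass, beside 16.8% of genes lower and 19% higher, and the median was -1.03. With CDDO-Me, intron reads rose for 4 (Tdo2, Kmo, Got1 and Tat), beside 2.83% of genes higher, and fell for 0, beside 1.99%. In CDDO-Me against control they fell for 17 (11.2% of genes) and rose for 1, Prodh (14.6% of genes). Tdo2 intron reads were at 642 ± 216 CPM in control, 356 ± 191 in NASH vehicle and 1069 ± 238 with CDDO-Me, a change of 1.59 ± 0.32, adjusted p = 0.0041. Kmo intron reads changed by 1.30 ± 0.21, adjusted p = 0.000354 and those of Got1 by 1.23 ± 0.34, adjusted p = 0.0375. Tat intron reads were at 632 ± 152 CPM in NASH vehicle and 1252 ± 417 in CDDO-Me (0.98 ± 0.29, adjusted p = 0.0469), while its total reads did not rise (-0.10 ± 0.18). The difference between the intron and total changes was not tested. CPM of introns are relative to the intron reads of a library and are not on the scale of the other levels.

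Some enzymes whose total reads fell had intron reads that did not. Prodh intron reads were at 0.52 ± 0.22, adjusted p = 0.0656 in NASH vehicle against control and rose in CDDO-Me against control, 0.89 ± 0.22, adjusted p = 0.00406, where total reads fell by 0.88 ± 0.12; Dgcr6 lies over the locus. Sds intron reads were at -0.33 ± 0.33, adjusted p = 0.47 and those of Mccc2 at -0.26 ± 0.22, adjusted p = 0.395, beside total changes of -1.54 ± 0.40 and -1.44 ± 0.16. Aadat intron reads fell by 2.69 ± 0.40, adjusted p = 0.000107, and those of Hal and Afmid changed by -2.27 ± 0.52, adjusted p = 0.00535 and -2.06 ± 0.23, adjusted p = 4.45e-07, so for these 3 both kinds of read fell. The sign of the intron change was that of the total change for 39 of 43 enzymes in NASH vehicle against control and for 37 of 43 in CDDO-Me against NASH vehicle. Total reads include the intron reads, so the 2 signs are not independent.

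**Figure D5:**
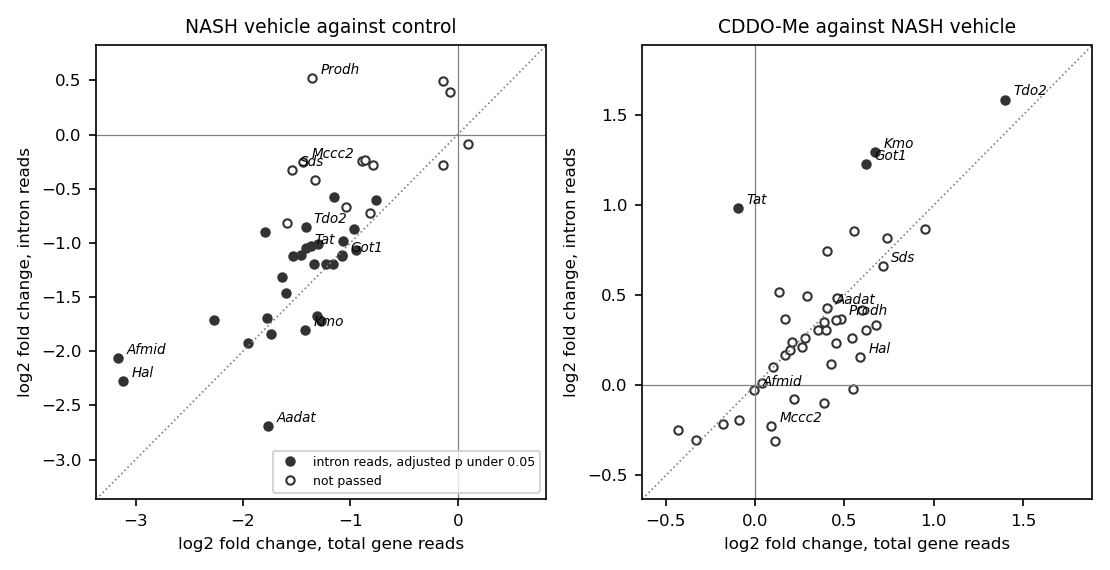
Log2 fold change of intron reads (y axis) against that of total gene reads (x axis) for the 43 enzymes, in NASH vehicle against control (left) and CDDO-Me against NASH vehicle (right); filled points passed the test on intron reads and the dotted line marks equal change. Prodh lies above 0 on the left with a total change of -1.35, and Tdo2, Kmo, Got1 and Tat are the 4 filled points on the right.

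Other genes of amino acid breakdown moved the same way as the 43. Of 35 tested enzymes outside the 43, 34 fell in NASH vehicle and 0 rose, with a median of -1.09, and Oat was the 1 that did not pass. For this list and those that follow, 30% of all tested genes fell and 29.6% rose in NASH vehicle against control. In CDDO-Me against NASH vehicle, 9.39% rose and 7.24% fell. Csad (cysteine sulfinate decarboxylase, of taurine synthesis) was at -2.84 ± 0.15, adjusted p = 1.95e-08 and Pipox (pipecolate and sarcosine oxidase) at -2.07 ± 0.16, adjusted p = 2.74e-07. With CDDO-Me, 12 of the 35 rose and 0 fell, among them Hnmt (histamine methyltransferase) at 0.86 ± 0.09, adjusted p = 5.32e-05 and Mcee (methylmalonyl-CoA epimerase, between Pcca and Mut) at 0.62 ± 0.09, adjusted p = 0.000751. Bckdk, the kinase that switches off the complex of Bckdha, Bckdhb and Dbt, was at 0.23 ± 0.12, adjusted p = 0.127 in NASH vehicle, and Ppm1k, the phosphatase that switches it on, fell by 0.91 ± 0.25, adjusted p = 0.00808. Of 12 amino acid transporters 9 fell and 1 rose, with Slc25a44 (mitochondrial branched-chain amino acid carrier) at -0.91 ± 0.09 and Slc25a13 (aspartate-glutamate carrier) at -1.07 ± 0.14. With CDDO-Me 1 transporter rose (Slc25a22, a mitochondrial glutamate carrier, 0.60 ± 0.13, adjusted p = 0.00659) and 1 fell (Slc43a1, -0.80 ± 0.20, adjusted p = 0.016).

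Among 11 regulators of these enzymes, 8 fell in NASH liver, 1 (Cebpb) rose, and Ppara and Ppargc1a did not pass. Gcgr, the glucagon receptor whose signal induces Tat and Sds among others, was at -0.78 ± 0.12, adjusted p = 0.00012. With CDDO-Me, Ppargc1a (a coactivator of fasting metabolism) rose by 0.64 ± 0.16, adjusted p = 0.0153 and Gcgr by 0.43 ± 0.12, adjusted p = 0.0287, and the other 9 did not pass. Of 13 hepatocyte markers outside the 43 (Cps1 among them), 11 fell in NASH liver, 1 rose and 1 did not pass. Their median was -0.94 and their highest value 0.61, beside a median of -1.33 for the 43 enzymes. Serpina1a (an antitrypsin) was at -1.33 ± 0.16, adjusted p = 1.07e-05 and Ttr (transthyretin) at -1.51 ± 0.18, adjusted p = 1.21e-05. With CDDO-Me against NASH vehicle 0 of the 13 hepatocyte markers rose and 2 fell (Ahsg at -0.59 ± 0.15, adjusted p = 0.0146 and Serpina1a at -0.62 ± 0.16, adjusted p = 0.0165), with a median of -0.07. In NASH vehicle each of the 12 macrophage markers was higher than in control (median 3.55), and with CDDO-Me 10 of them fell (median -1.18). Mpeg1 was at 3.86 ± 0.15, adjusted p = 1.86e-09 and Adgre1 at 3.36 ± 0.16, adjusted p = 7.8e-09 in NASH vehicle, and with CDDO-Me Adgre1 changed by -1.63 ± 0.15, adjusted p = 1.23e-05 and Fcgr1 by -1.82 ± 0.17, adjusted p = 1.6e-05. Whether the enzymes differ from the hepatocyte markers was not tested.

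Markers of other liver cells and of the zones of the lobule also moved between the groups. Of 6 endothelial markers 4 fell in NASH liver (Clec4g at -1.30 ± 0.18, adjusted p = 5.13e-05 and Kdr at -1.63 ± 0.25, adjusted p = 0.000119) and 4 rose with CDDO-Me (Lyve1 by 2.00 ± 0.37, adjusted p = 0.00393 and Kdr by 1.21 ± 0.24, adjusted p = 0.00598). Their sums were 164 to 178 CPM (control), 71.8 to 139.8 (NASH vehicle) and 149.8 to 216 (CDDO-Me). Of 8 markers of periportal hepatocytes, where much of amino acid breakdown takes place, 6 fell and 1 rose in NASH liver, with Igf1 at -1.36 ± 0.15, adjusted p = 4.72e-06 and Arg1 (arginase of the urea cycle) at -2.27 ± 0.26, adjusted p = 6.91e-06. With CDDO-Me 2 of the periportal markers rose, Arg1 among them by 0.96 ± 0.25, adjusted p = 0.018, and 1 fell, Igf1 at -0.53 ± 0.15, adjusted p = 0.025. The periportal sums were 10657 to 15247 CPM (control), 4798 to 7475 (NASH vehicle) and 4481 to 8397 (CDDO-Me). Of 8 pericentral markers 5 rose and 2 fell in NASH liver (Rhbg at 2.75 ± 0.16, adjusted p = 2.69e-08 and Cyp1a2 at -1.15 ± 0.14, adjusted p = 1.42e-05), and 3 rose with CDDO-Me, with Cyp1a2 at 3.33 ± 0.15, adjusted p = 4.07e-08 and Glul (glutamine synthetase) at 0.77 ± 0.11, adjusted p = 0.000634. Their sums were 6342 to 8349 CPM (control), 5083 to 6334 (NASH vehicle) and 10920 to 12915 (CDDO-Me), so the CDDO-Me libraries lay above both other groups.

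Of 9 tested stellate and smooth muscle markers 5 rose in NASH liver (Pdgfrb at 2.44 ± 0.21, adjusted p = 1.04e-06 and Reln at 1.04 ± 0.10, adjusted p = 2.14e-06) and 3 fell with CDDO-Me (Reln at -0.47 ± 0.10, adjusted p = 0.00707 and Col1a1 at -1.41 ± 0.36, adjusted p = 0.0219). Their sums were 210.0 to 641 CPM (control), 818 to 1123 (NASH vehicle) and 488 to 889 (CDDO-Me). Of 7 cholangiocyte markers 5 rose in NASH liver (Spp1 among them at 4.00 ± 0.42, adjusted p = 7.79e-06) and 0 passed with CDDO-Me (Sox9 was at -0.53 ± 0.21, adjusted p = 0.109). The sums of the 7 were 44.8 to 265 CPM (control), 450.3 to 1097 (NASH vehicle) and 381 to 865 (CDDO-Me). The part of all these markers, and of cell composition, in the enzyme changes was not tested.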

How the data were processed

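Liver poly(A) RNA of 12 libraries was sequenced as 75 bp paired-end reads, per the labels' protocols. Each library has 1 deposited table of whole-number read counts per gene (total, unique, exon and intron reads), per the file headers, along with TPM made by the authors per exon length. Fractions of unique and intron reads are also deposited, per the file headers. The build is GRCm38 per the submitters' processing notes; the aligner, counter and strand, and whether a read pair counts once, were not stated in what was used here.

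Total gene reads were fitted in edgeR 4.0.16 (R 4.3.3) with 1 mean per group over all 12 libraries, filterByExpr (minimum count 10, total 15), TMM scaling and robust quasi-likelihood tests, two-sided, with Benjamini-Hochberg adjustment at 0.05. SE is the absolute log2 fold change over the square root of F. The fit was tested on simulated data. Intron reads were fitted alike. Promoter sequences are from RefSeq, GRCm38.p6. The members and lists were chosen with earlier results of these data known. Every member is accounted for. Values of each library are given for the largest fall of each route, members that rose with CDDO-Me, and those that did not pass in NASH liver; for other lists, the 2 genes of lowest p, of which 1 regulator and 1 marker are not reported here. Alternatives were DESeq2 1.42.0, DESeq2 size factors, library totals, filters, unique or exon reads, limma-trend (limma 3.58.1) on log2(TPM + 1), the 8 libraries of 2 groups, a replicate block, and fits without each library or without control 3 and CDDO-Me 4, which hold more stellate and cholangiocyte marker RNA than the rest of their groups. Deviations of same-numbered libraries correlated at -0.223 to 0.187, and 0 of 12 were most like the library of their number elsewhere, so no pairing entered the fit.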

Additional observations from a re-analysis of the deposited data

Results flagged for a closer look

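In 11 of 129 sets of 4 libraries (43 enzymes in 3 groups), 1 library lay far from the other 3; chance gives about 1 in 20, and the enzymes of a library are not independent. In 9 of the 11 it was NASH vehicle 1, as the highest of its group. Its levels were Hgd at 411 CPM (others 264 to 284), Gstz1 at 364 (264 to 265), Tdo2 at 907 (465 to 499.5) and Prodh at 101 (77.3 to 81.0). The same library held Aldh4a1 at 386 CPM (others 289.9 to 300.1), Aass at 226 (125 to 137), Aadat at 44.6 (26.1 to 28.2), Gcdh at 311 (206 to 211) and Mccc1 at 53.6 (39.3 to 41.6). The other two were Aadat in control 2, at 114 CPM (others 105 to 106), and Bckdhb in CDDO-Me 2, at 99.0 CPM (others 89.8 to 90.4).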

How the results depend on the processing

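All 39 falls in NASH vehicle against control passed the test without each library in turn, and 30 did so under every one of the 23 alternatives. Of the 35 enzymes lower in CDDO-Me than control, 33 passed without each library (Hibch and Gldc did not) and 20 under every alternative. Of the 12 rises with CDDO-Me against NASH vehicle, 4 did both. The number of rises, 12 with all libraries, ranged between 4 and 25 when 1 library was left out, and leaving out control 3 and CDDO-Me 4 gave 20. The replicate block left 39 falls in NASH liver, 8 rises with CDDO-Me and 35 lower against control. The same counts over all 16456 tested genes were 4723, 1250 and 3637. The replicate numbers pair no samples.

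Scaling changed signs. In NASH vehicle against control, library totals and TPM each gave 4 enzymes higher, beside 9908 and 10905 of all 16456 tested genes. Gpt2 turned to 0.55 and 0.72, Bcat2 to 0.49 and 0.60, and Bckdhb to 0.49 and 0.46. Agxt2, already positive with TMM, moved to 0.73 and 0.90. On TPM, Aldh4a1 turned to 0.058, Bckdha to 0.0077 and Pccb to 0.015. In CDDO-Me against control, 3 enzymes were higher with library totals and 4 on TPM, and 20 were lower on TPM. Of all 16456 tested genes, 8678 were higher with library totals, and 8845 were higher and 812 lower on TPM. Agxt2 and Bcat2, positive already with TMM, each passed as higher in 2 of the alternatives. Signs also changed, whether or not the value passed: Tdo2 turned to 0.44 and 0.56, Gpt2 to 0.067 and 0.18, and Hibch to 0.088 and 0.21. On TPM, Aldh4a1, Aldh6a1 and Mut turned to 0.095, 0.13 and 0.28. In CDDO-Me against NASH vehicle, TPM gave 6 higher and 3 lower, beside 779 higher and 2607 lower of all 16456 tested genes. Library totals and DESeq2 each gave 1 enzyme lower, beside 1589 and 1853 of all tested genes. Library totals and TPM moved the share of higher genes among all calls from 56.5% to 36.8% and 23.01% in that comparison, and from 52.7% to 88.5% and 91.6% in CDDO-Me against control. The cause was not tested.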
